A study of Mus musculus with 16 samples.

Results

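D1Pas1, Ddx4, Dazl, Stk31, Cyct, Tex14, Zar1 and Tuba3b are 8 genes of the germ line that have an H3K4me3 region in adult mouse hippocampus. They were taken as a named list of germ cell RNA and testis genes, chosen with earlier results of these data known. Their regions are those within 2 kb of either end of the gene on the mm10 build. Each gene had 1 such region, so the 8 genes are represented by 8 of the 35996 regions measured. Trimethylation of histone H3 at lysine 4 (H3K4me3) was profiled by chromatin immunoprecipitation and sequencing (ChIP-seq) in 6 groups of 2 libraries, and each library pooled the hippocampi of 2 adult male mice aged 2 to 4 months. WT and Kdm5c KO mice, of a mixed C57 and 129 background, were taken under standard conditions or after 1 h alone in a box holding toys and tubing, which is called novelty in what follows. A separate cohort on a pure C57BL/6J background held mice of a line that the labels name ifKO and their controls, named ifWT here, both under standard conditions. Controls were littermates throughout, and nothing else is said to be shared by mutants and controls. Which alleles the KO and ifKO lines carry, and how, where and when Kdm5c is lost in the ifKO line, was not stated in the labels. For Kdm5C itself and for the monomethylated mark H3K4me1 there was 1 library of each genotype, on the C57BL/6J background.

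Kdm5c is an X-linked gene whose enzyme removes methyl groups from H3K4, and H3K4me3 is the mark typical of active promoters. Many germ line genes carry CpG-rich promoters that are kept silent in most somatic tissues by DNA methylation and by repressor complexes, and loss of Kdm5c is known to be accompanied by expression of some of them in brain. The 8 genes act in different steps of germ cell life. D1Pas1 and Ddx4 encode RNA helicases, Dazl and Zar1 encode RNA-binding regulators of translation, Stk31 and Tex14 encode proteins with kinase-like domains, and Cyct and Tuba3b encode testis forms of cytochrome c and alpha tubulin.

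The libraries held 18181192 to 30435735 counts over all regions, so that a floor of 3 counts stood at 0.0953 to 0.168 CPM, the read count scaled to a common library size by the trimmed mean of M-values. The strongest single region took 0.744 to 1.09% of the counts in the KO cohort and 1.95 to 3.60% in the ifKO cohort. All 10 markers of pyramidal and granule neurons had a region, whereas 2 of 7 markers of male germ cells did (Kit and Zbtb16). Pou5f1, Stra8, Sycp1, Prm1 and Acrv1 had none within 2 kb. At the end of Kdm5c the level was 61.6 to 72.2 CPM in WT and 59.9 to 60.9 CPM in KO, and 58.1 to 61.5 CPM in ifWT against 53.5 to 59.6 CPM in ifKO. That region does not report on the deletion, since the deleted part is not given. Over the separate set of Kdm5C regions, the Kdm5C libraries held 3835440 covered bases in WT and 852275 in KO.

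In WT hippocampus the 8 regions fell into strong and near-silent ones. The mean level in WT under standard conditions was 19.9 CPM per kb of region at Tex14, shared with Rad51c, and 16.4 at Dazl. The Tuba3b region followed at 3.96 and Zar1 at 2.41. The levels per kb were 0.743 at Ddx4, 0.559 at Stk31, 0.312 at Cyct and 0.108 at D1Pas1. In KO under standard conditions the last 4 stood at 3.55, 2.41, 3.50 and 3.29 CPM per kb, in the same order of genes, and Zar1 at 2.95. The near-silent members of WT thus reached the level of Zar1, and stayed well under the 30.3 CPM per kb of Tex14 and the 19.4 of Dazl in the same libraries.

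The RefSeq promoter table of GRCm38.p6 had an entry for all 8 members. The 250 bases before the start site are shown for the 4 near-silent members, because these are the starts at which H3K4me3 differed most between WT and KO. They lie at chr1:186967166-186967415 (plus strand), chr13:112652311-112652560 (minus strand), chr6:49395289-49395538 (plus strand, upstream of 2 annotated starts) and chr2:76360454-76360703 (minus strand), and are written 5′ to 3′ along the gene. Capitals mark the E-box CACGTG, and the E2F-type motif GCGGGAA or its reverse complement.
D1Pas1: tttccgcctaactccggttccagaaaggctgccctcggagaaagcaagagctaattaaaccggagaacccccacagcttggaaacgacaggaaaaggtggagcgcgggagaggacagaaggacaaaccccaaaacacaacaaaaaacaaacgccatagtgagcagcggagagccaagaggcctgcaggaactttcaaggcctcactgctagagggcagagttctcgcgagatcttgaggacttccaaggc
Ddx4: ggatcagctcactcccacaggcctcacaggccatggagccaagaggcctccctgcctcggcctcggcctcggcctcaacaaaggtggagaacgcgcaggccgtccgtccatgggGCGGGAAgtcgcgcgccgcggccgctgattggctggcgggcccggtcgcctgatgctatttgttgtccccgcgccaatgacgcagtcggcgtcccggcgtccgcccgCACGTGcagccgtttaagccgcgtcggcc
Stk31: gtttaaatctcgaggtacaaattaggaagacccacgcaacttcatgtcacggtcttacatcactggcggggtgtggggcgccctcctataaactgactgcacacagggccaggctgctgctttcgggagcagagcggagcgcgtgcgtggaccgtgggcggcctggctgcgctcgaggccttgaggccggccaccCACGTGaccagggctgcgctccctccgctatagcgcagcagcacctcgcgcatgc
Cyct: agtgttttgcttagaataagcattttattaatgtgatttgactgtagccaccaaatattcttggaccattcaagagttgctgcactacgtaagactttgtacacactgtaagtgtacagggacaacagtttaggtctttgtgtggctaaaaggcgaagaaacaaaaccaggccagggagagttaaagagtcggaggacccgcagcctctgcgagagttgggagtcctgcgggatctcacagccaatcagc

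Searched on both strands, CACGTG was found in the promoters of Ddx4, from 29 bases before the start, and of Stk31, from 55 bases before it. It occurs in 7.15% of the 32851 promoters of the table, counted over 250 bases before and 50 after the start. The flanked form TCACGTGA was found in none of the 8, and in 0.974% of all promoters. GCGGGAA was found in 3 of the 8, namely Ddx4 at 136, Tex14 at 112 and Tuba3b at 107 bases before the start, against 4.6% of all promoters. The GC box GGGCGG occurred in Ddx4, Stk31, Tex14 and Zar1 and in 35.7% of all promoters. At Ddx4 and at Tex14 a GC box overlaps the E2F-type motif. D1Pas1, Cyct and Dazl, which include the lowest WT levels and 1 of the highest, held none of these letters in the window. The promoters of the members held 8 (Cyct) to 38 (Ddx4) CpG dinucleotides, against a median of 7.0 over the table. These matches describe the letters and not binding.

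**Figure D1:**
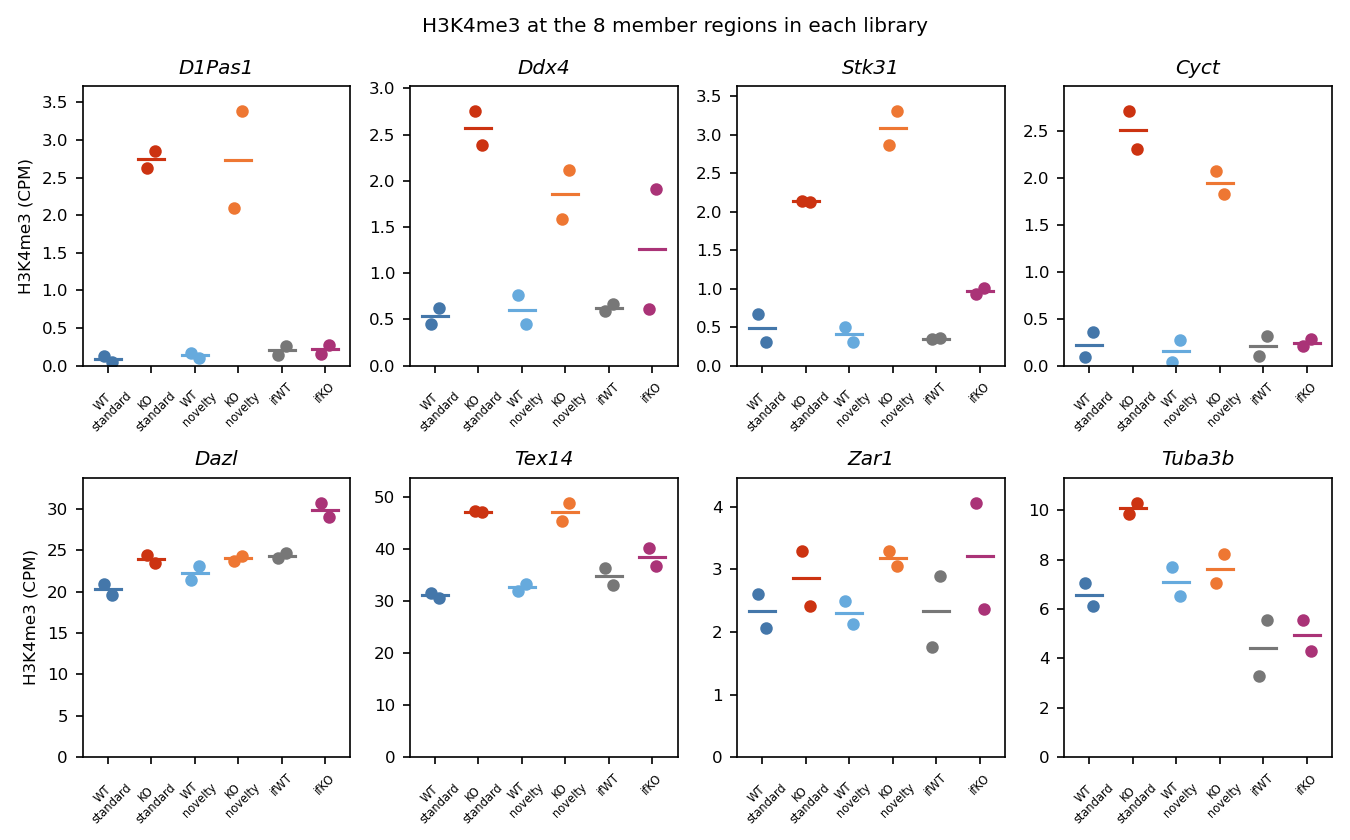
H3K4me3 (CPM, vertical axis) at each of the 8 member regions in the 12 libraries, by group; points are libraries, bars are the means of 2, and the vertical scales differ. D1Pas1 and Cyct are high in the 4 KO libraries alone, Stk31 is intermediate in ifKO, and Dazl is highest in ifKO.

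The first comparison asks how H3K4me3 at these genes differs between Kdm5c KO and WT. Under standard conditions 6 of the 8 members rose in KO against WT and none fell: D1Pas1, Cyct, Ddx4, Stk31, Tuba3b and Tex14. Over all 35955 regions tested, 9.74% were called higher and 3.67% lower (adjusted p under 0.05, edgeR quasi-likelihood test with Benjamini-Hochberg adjustment), or 3501 against 1320 regions. With library totals in place of the trimmed-mean scaling the split was 3908 against 442. After novelty 5 members rose and none fell, against 11.1% of regions called higher and 5.94% lower (3981 against 2137, or 4430 against 969 by library totals). The members were D1Pas1, Cyct, Stk31, Ddx4 and Tex14. D1Pas1 and Cyct passed the filter on low counts through the KO libraries alone, the only ones in which they reached 10 counts. The list was also chosen with earlier results of these data known. These shares therefore describe the list and do not stand as support. Without regard to the test, the KO libraries stood above the WT libraries at 7 members under standard conditions (30.2% of all regions), at 7 after novelty (31.0%) and at 6 when all 4 KO were set against all 4 WT libraries (17.1%). Among weak regions at gene ends (mean log2 CPM under 1), to which D1Pas1, Ddx4, Stk31 and Cyct belong, 10.1% were called higher under standard conditions and 10.6% after novelty. In bulk tissue, a change in the share of a cell type and a change of the mark per cell cannot be told apart. Nothing in the labels says more of the replicates than that they are separate pools, so the p-values measure the spread between pools.

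D1Pas1, an autosomal testis relative of the X-linked RNA helicase Ddx3x, showed the widest difference. Its region at chr1:186967324-186968158 (834 bp) contains the start site. The region held 3 and 1 counts in the WT libraries under standard conditions and 64 and 78 in KO, and 4 and 3 against 66 and 83 after novelty. Every KO library was above every WT library, and the WT libraries were at or near the floor of 3 counts. The pooled counts, 142 against 4, gave a ratio of 30.7 after scaling (exact 95% interval 11.7 to 114.0, counting error only). After novelty, 149 against 7 gave 19.9 (9.43 to 50.4). The fitted log2 change was 4.86 ± 0.52 (SE, adjusted p = 1.8e-08) under standard conditions, the 2nd highest of all regions tested, and 4.29 ± 0.46 (2.1e-08) after novelty. The ratios of pooled counts describe this change better, since a fitted change from so few counts depends on the prior count. The region passed the filter on low counts through the KO libraries alone. Its rank and adjusted p therefore describe the region and do not stand as support.

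Ddx4, the mouse Vasa helicase of the germ granule and the piRNA pathway, has its region at chr13:112651877-112652600 (723 bp) over the start site. Counts were 10 and 14 in WT and 67 and 65 in KO under standard conditions, and 18 and 13 against 50 and 52 after novelty. The groups did not overlap in either condition. The means were 0.537 ± 0.125 CPM (SD, n = 2) in WT and 2.57 ± 0.259 in KO, a log2 change of 2.24 ± 0.40 (adjusted p = 1.2e-04). After novelty the change was 1.62 ± 0.39 (0.00373). That call was lost without the second WT novelty library (0.122) and without the second KO novelty library (0.0508).

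Dazl and Zar1, the RNA-binding members, behaved differently. Dazl, which binds messenger RNAs and promotes their translation in germ cells, already carried the mark in WT. Its region, chr17:50292149-50293381 (1232 bp), begins 239 bp downstream of the start site and lies inside the gene, so it does not cover the promoter window itself. Counts were 465 and 439 in WT and 595 and 638 in KO under standard conditions, and 506 and 663 against 746 and 596 after novelty. Scaled for depth, the libraries of KO stood above those of WT in both conditions, at 23.4 to 24.4 against 19.6 to 20.9 CPM and at 23.7 to 24.3 against 21.4 to 23.1 CPM. Neither difference passed the test: the log2 changes were 0.24 ± 0.09 (adjusted p = 0.0704) and 0.11 ± 0.09 (0.422). Averaged over both conditions the change of 0.17 ± 0.06 passed (0.031), as did 7 members in all, against 18.1% of regions called higher and 13.9% lower in that comparison (6519 against 5009, or 7287 against 2565 by library totals). The members were those called under standard conditions and Dazl. The Dazl call was lost under 3 of the alternative settings and without any of 5 single libraries, as given in the closing section.

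Zar1 encodes a maternal RNA-binding protein needed for the first steps of the embryo. Its region, chr5:72580147-72581113 (966 bp), contains the start site and also lies within 2 kb of the pseudogene Slc10a4l. Counts were 58 and 46 in WT and 80 and 66 in KO under standard conditions, and 59 and 61 against 104 and 75 after novelty. The means were 2.33 ± 0.389 and 2.85 ± 0.61 CPM under standard conditions, with overlapping libraries, and 2.31 ± 0.261 and 3.18 ± 0.179 CPM after novelty, without overlap. The log2 changes of 0.29 ± 0.27 (adjusted p = 0.525) and 0.47 ± 0.26 (0.213) did not pass the test.

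Stk31, a germ cell protein with a Tudor and a kinase-like domain, has its region at chr6:49395220-49396103 (883 bp) over both of its start sites. Counts were 15 and 7 in WT and 52 and 58 in KO under standard conditions, and 12 and 9 against 90 and 81 after novelty. Each KO library was above all WT libraries. The log2 change was 2.10 ± 0.36 (adjusted p = 8.7e-05) under standard conditions and 2.92 ± 0.35 (1.6e-07) after novelty, and the pooled ratios were 4.33 (2.72 to 7.18) and 7.62 (4.83 to 12.6).

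Tex14, which is needed for the bridges that join dividing germ cells, had the highest level of the 8. Its region, chr11:87403859-87405418 (1559 bp), contains the Tex14 start. It also lies within 2 kb of an end of Rad51c, a recombination gene expressed in many tissues. Signal that belongs to Tex14 and signal that belongs to Rad51c cannot be told apart there. Counts were 701 and 686 in WT and 1154 and 1284 in KO, and 757 and 958 against 1432 and 1201 after novelty. In CPM the libraries lay at 30.7 to 31.5 against 47.1 to 47.4, and at 32.0 to 33.3 against 45.5 to 48.9. The log2 changes were 0.60 ± 0.07 (adjusted p = 2.0e-07) and 0.53 ± 0.07 (1.3e-06). This difference is small beside those of the near-silent members, and its deep counts gave it a low adjusted p.

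Cyct, the testis form of cytochrome c in the respiratory chain of sperm, has its region at chr2:76359863-76360580 (717 bp) over the start site. Counts were 2 and 8 in WT and 66 and 63 in KO under standard conditions, and 1 and 8 against 65 and 45 after novelty. All 4 KO libraries exceeded all 4 WT libraries. The pooled ratios were 11.2 (5.88 to 23.8) and 11.4 (5.81 to 25.7), and the log2 changes 3.45 ± 0.49 (adjusted p = 3.7e-06) and 3.48 ± 0.50 (5.1e-06). As at D1Pas1, the filter was passed through the KO libraries alone, so these adjusted p-values do not stand as support.

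Tuba3b, an alpha tubulin of the testis, is the member whose region does not lie at the start or inside of its own gene. The region, chr6:145612672-145614335 (1663 bp), ends 1628 bp upstream of the Tuba3b start and also lies within 2 kb of an end of the gene Gm38475. Counts were 157 and 137 in WT and 240 and 281 in KO under standard conditions, but 183 and 187 against 222 and 202 after novelty. Under standard conditions the KO libraries stood above WT, at 9.86 to 10.3 against 6.12 to 7.05 CPM, whereas after novelty they overlapped, at 7.05 to 8.22 against 6.51 to 7.72 CPM. The log2 change was 0.61 ± 0.17 (adjusted p = 0.0168) and then 0.10 ± 0.17 (0.736). The first call was lost without the second WT library (0.208) and without either KO library (0.0535 and 0.0801), and with offsets fitted to region strength (0.0741).

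**Figure D2:**
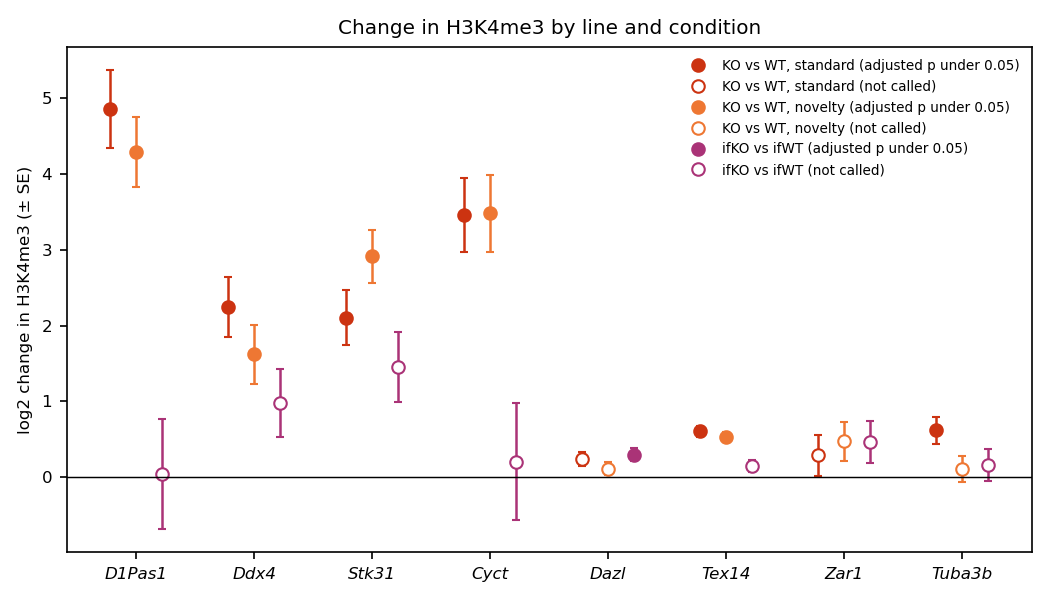
Log2 change with its standard error (vertical axis) at each member (horizontal axis) for KO against WT under standard conditions, KO against WT after novelty, and ifKO against ifWT; filled points passed the test. D1Pas1 and Cyct lie at 3.45 to 4.86 in both KO comparisons and at 0.03 and 0.20 in ifKO.

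In the novelty comparisons none of the 8 members passed the test in WT, in KO or in the interaction of genotype and novelty. Over all regions, 0.00556% were called in WT, 0.0% in KO and 0.0% in the interaction by edgeR. At an unadjusted p under 0.05 there were 1679, 1416 and 1055 regions. DESeq2 and limma-voom each called 1, 1 and 0. The log2 changes of the members with novelty in WT ran from -0.39 (Cyct) to 0.55 (D1Pas1), on counts of 1 to 8 for these genes. In KO the Tuba3b region stood at -0.41 ± 0.17 (unadjusted p = 0.0215) and Stk31 at 0.52 ± 0.27 (0.0623), and the interaction was -0.51 ± 0.25 (0.0456) at Tuba3b. None held after adjustment, so that a difference in the KO effect between the conditions was not shown for any member.

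The ifKO line was compared with its own controls. Its libraries stood above both ifWT libraries at 3 members, Dazl, Stk31 and Tex14, against 21.8% of all regions. The only member that rose was Dazl, against 4.41% of regions called higher and 0.976% lower. Dazl held 489 and 552 counts in ifWT and 597 and 516 in ifKO, or 24.0 to 24.6 against 29.0 to 30.7 CPM, without overlap. Its log2 change was 0.30 ± 0.09 (adjusted p = 0.0426), and the call was lost under most alternatives, replicate block included (0.0523). The summed level of the 10 markers of pyramidal and granule neurons was 704.0 to 755.0 CPM in ifWT and 843.0 to 917.0 in ifKO. Of the 10, 1 was called, Camk2a, with a log2 change of 1.02, and the median change of the list was 0.06. The part of this shift in the Dazl value was not tested. At D1Pas1 there were 3 and 6 counts in ifWT and 3 and 5 in ifKO. The pooled ratio was 1.02 (0.343 to 2.98), and the log2 change 0.03 ± 0.73 (0.988). At Cyct there were 2 and 7 against 4 and 5 counts, with a ratio of 1.15 (0.404 to 3.27) and a log2 change of 0.20 ± 0.77 (0.928). Both intervals reach to about 3-fold higher, so smaller differences were not detectable at this depth.

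Stk31 held 7 and 8 counts in ifWT and 18 and 18 in ifKO. The groups did not overlap, and the ifKO level of 0.968 ± 0.0602 CPM lay between those of all WT libraries and all KO libraries. The log2 change of 1.45 ± 0.46 missed the threshold (adjusted p = 0.0581), and the pooled ratio was 2.76 (1.47 to 5.42). The Ddx4 region held 12 and 15 counts in ifWT and 12 and 34 in ifKO, so 1 ifKO library was at the control level and the other above it. Its log2 change was 0.98 ± 0.44 (0.227), and 1.59 (0.0375) without the first ifKO library. At Tex14 the counts were 744 and 744 against 781 and 654, or 33.2 to 36.4 against 36.7 to 40.2 CPM, with a log2 change of 0.14 ± 0.08 (0.305). At Zar1, counts of 36 and 65 against 79 and 42 overlapped (0.46 ± 0.27, 0.391), as did those of 67 and 124 against 108 and 77 at the Tuba3b region (0.16 ± 0.21, 0.75).

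The difference between the KO effect under standard conditions and the ifKO effect was tested directly. It was positive and past the threshold at D1Pas1, with 4.82 ± 1.00 on the log2 scale (adjusted p = 0.0109). At the Tex14 region, shared with Rad51c, it was 0.46 ± 0.11 (0.0281) and also past the threshold. Over all regions, 0.651% were called in that direction and 0.0501% in the other. D1Pas1 passed the filter on low counts through the KO libraries alone, so its call does not stand as support. The D1Pas1 call was lost without the second WT library under standard conditions (0.098) and without the second ifWT library (0.272). The Tex14 call was lost with DESeq2 (0.0686), limma-voom (0.075) and a fit of the compared groups alone (0.0768), and without any of 6 libraries. At Cyct the difference was 3.25 ± 0.97 (0.145), at Ddx4 1.27 ± 0.62 (0.587) and at Stk31 0.65 ± 0.62 (0.871). A difference between the lines was therefore not shown for these 3, although they passed the test in KO and not in ifKO. The lines differ in genetic background and cohort, and the labels do not state which alleles they carry. The parts of background, cohort and allele in these values cannot be told apart here.

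Ordered by mean CPM, the groups of D1Pas1 and of Cyct ran from the WT and ifWT groups through ifKO, each overlapping its neighbour, with a gap before both KO groups. At Stk31 the 3 control groups overlapped, then came ifKO, KO under standard conditions and KO after novelty, each apart from its neighbour. At Ddx4 the 3 control groups, ifKO and KO after novelty each overlapped the next, and KO under standard conditions lay above. The order at Tex14 was WT, ifWT, ifKO and KO, and the 2 KO groups overlapped. At Dazl the lowest group was WT under standard conditions and the highest ifKO, with KO and ifWT overlapping between them. At Zar1 all neighbours overlapped. The Tuba3b region was lowest in the ifKO cohort, where ifWT and ifKO lay at 3.28 to 5.55 CPM and all WT and KO libraries at 6.12 CPM or more.

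**Figure D3:**
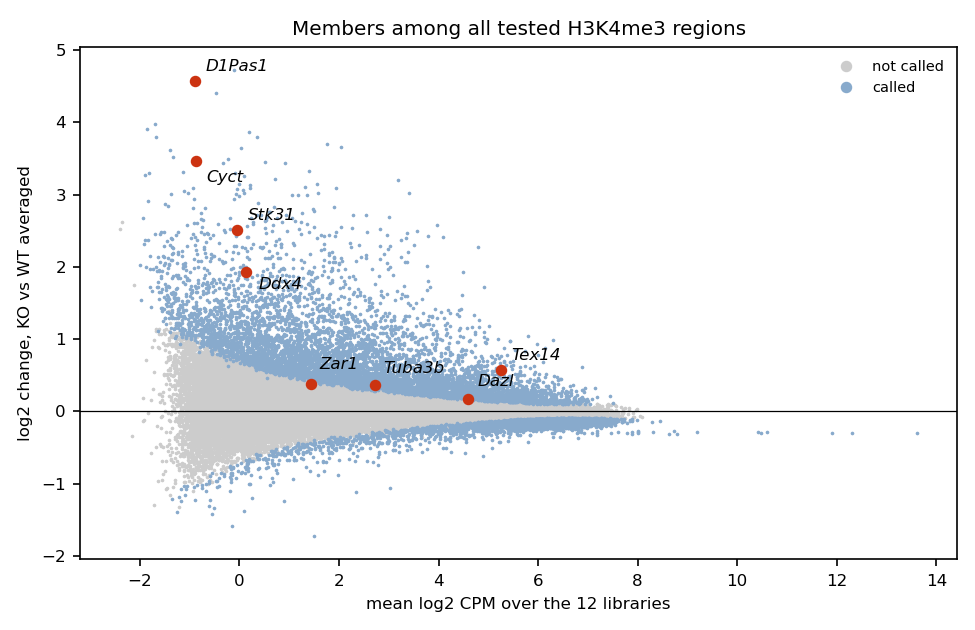
Log2 change of KO against WT, averaged over standard conditions and novelty (vertical axis) against mean level over the libraries (horizontal axis, log2 CPM) for the tested regions, with the 8 members named in red and called regions in blue. D1Pas1, Cyct, Ddx4 and Stk31 lie among the weak regions, and Tex14 and Dazl among the stronger ones at changes of 0.57 and 0.17.

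Reads from near-identical copies could be shared between genes, and the treatment of reads with several positions is not stated in any label or header. Ddx3x, the X-linked relative of D1Pas1, held 1079 to 1502 counts per library, its Y-linked copy Ddx3y 919 to 1865, Cycs, the somatic cytochrome c gene, 1802 to 3137, and Boll, a relative of Dazl, 169 to 361. None of the 4 was called in the KO, ifKO or difference comparisons. Tuba3a and Zar1l had no region within 2 kb.

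Beyond the 8 members, 55 other genes of germ cell RNA handling and testis function were listed, of which 18 had a region and were tested. Of these 18, 1 rose and none fell in KO under standard conditions, 1 rose and 1 fell after novelty, and 3 rose and 1 fell in the average of both. Over all regions 9.74%, 11.1% and 18.1% were called higher in these comparisons, and the listed genes' counts are near or under those shares of 18. Their median log2 change was 0.06 under standard conditions, against 0.01 over all regions. The gene that rose was Rnf17, which encodes a Tudor protein of male germ cells, with 30 and 25 counts in WT and 68 and 89 in KO (log2 change 1.30 ± 0.27, adjusted p = 9.5e-04). After novelty it held 24 and 24 against 94 and 88 counts (1.83 ± 0.27, 7.9e-06). Ythdc2, an RNA helicase needed for meiosis, fell by 0.24 on the log2 scale after novelty (SE 0.06, adjusted p = 0.00669), a call lost with offsets fitted to region strength (0.0502) and without the second KO novelty library (0.0969). Among the others with the highest counts, Ddx25, Cpeb1, Tdrkh, Lin28a, Spag6 and Tdrd5 lay between -0.06 and 0.07 under standard conditions, and none was called. No region within 2 kb was found for 37 of the 55 listed genes, among them Piwil1, Mael and Tdrd1 of the piRNA pathway and the protamine gene Prm1.

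Kdm5C binding was read from the separate file of 2321 regions. Of the 8 member regions, 1 overlapped a region of that file, that of Dazl. Over all H3K4me3 regions 6.43% overlapped one, and over those at gene ends 10.7%. The Dazl overlap was chr17:50292882-50293068, a stretch of 186 bp wholly inside the H3K4me3 region. Kdm5C covered 1085 bases there in WT and 400 in KO, or 21.7 (13.8 to 33.3) and 8.0 (3.45 to 15.8) read equivalents with exact Poisson intervals for counting error only. The ratio of KO to WT was 0.369, against a median of 0.203 over the file, and by WT coverage per base the region ranked 295th of 2321. H3K4me1 covered 69 bases in WT and 158 in KO there, about 1.38 and 3.16 read equivalents, too few to tell apart. With 1 library each, no test was possible. The members whose mark differed most had no file region near them. The nearest lay 7.98 kb from Ddx4, 20.4 kb from Zar1 and 37.1 kb from Tex14, and 247 kb or more from D1Pas1, Cyct, Stk31 and Tuba3b. Among regions called higher in the average of both KO comparisons, 344 of 6519 (5.28%) overlapped a file region, among those called lower 637 of 5009 (12.7%), and among the 278 that were higher by 4-fold or more none did.

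**Figure D4:**
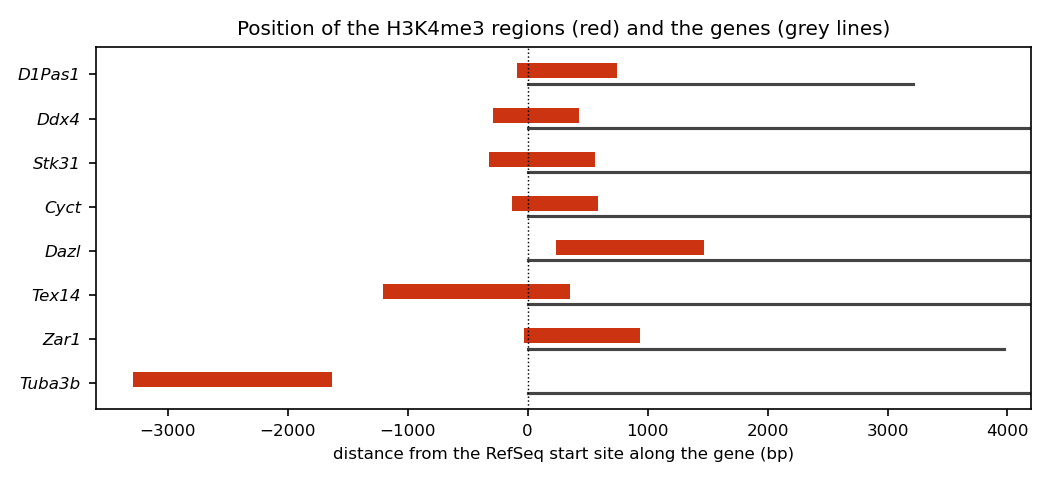
Position of each member's H3K4me3 region relative to the start site of its gene (horizontal axis, bp along the gene, start site at 0) as a red bar, with the gene as a grey line cut at the right edge. The regions of 6 members contain the start, that of Dazl begins 239 bp inside the gene, and that of Tuba3b lies 1628 bp upstream.

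Some markers of other cell types also differed between genotypes. Summed CPM of the 5 interneuron markers with a region was 59.3 to 66.9 in WT and 49.2 to 54.1 in KO. Only Gad1, which held the most counts of the 5, was called, at -0.43 in the average of both conditions. The median change of that list was -0.06 in the same comparison. For the 5 microglia markers the summed CPM was 17.7 to 21.7 in WT and 23.1 to 28.0 in KO. Only P2ry12 was called higher, at 0.524 in the average of both conditions. In that comparison Tmem119 (0.335), Csf1r (0.215), Cx3cr1 (0.034) and Aif1 (-0.209) were not called, and the median of the list was 0.21. For the 5 vascular markers the summed CPM was 128.0 to 145.0 in WT and 107.0 to 129.0 in KO. Of the 5, 3 were called lower in the average of both conditions, Tbx18 (-0.57), Flt1 (-0.26) and Cldn5 (-0.15). Tbx18 was also called under standard conditions, at -0.79. For the 3 choroid plexus and ependyma markers with a region it was 37.7 to 42.7 in WT and 41.7 to 47.5 in KO, and 39.7 to 44.7 in ifWT against 53.0 in ifKO. Of these, Ccdc153, in a region shared with Pdzd3, was called higher in KO under standard conditions (1.11), in KO after novelty (0.88) and in ifKO (1.43). Foxj1, in a region shared with Rnf157, was called higher in ifKO (0.40). Kl was not called, at -0.005, 0.059 and 0.195 in the same order of comparisons. The changes at the region of Ccdc153 and Pdzd3, on the log2 scale, were larger than those of Tex14, Tuba3b, Dazl and Zar1 in the same comparisons. In both KO comparisons they were smaller than those of D1Pas1, Cyct, Ddx4 and Stk31. In ifKO the change was larger than those of D1Pas1, Cyct and Ddx4 and close to that of Stk31 (1.45). For the 5 oligodendrocyte lineage markers with a region the summed CPM was 176.0 to 189.0 in WT and 162.0 to 176.0 in KO, with none called. For the 4 astrocyte markers with a region it was 184.0 to 205.0 against 187.0 to 216.0, with Gfap called higher. The 10 neuron markers summed to 708.0 to 787.0 in WT and 729.0 to 767.0 in KO, but 4 of them were called in the average of both conditions, Neurod6 (0.36) and Fezf2 (0.26) higher and Prox1 (-0.36) and Bcl11b (-0.21) lower. Of the 2 germ cell markers with a region, which summed to 182.0 to 193.0 in WT and 175.0 to 192.0 in KO, Kit was called higher in the average of both conditions, by 0.14 on the log2 scale. The part of these shifts in the members' differences was not tested.

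For the 7 members called in any comparison, the regions at gene ends whose pattern over the 12 libraries was most like that of a member were found by Pearson's r of log2 CPM. They are described without a test, since the libraries share group and depth. For D1Pas1, Cyct, Stk31, Ddx4 and Tex14 the KO groups had the highest means of the 6, whereas Dazl was highest in ifKO and the Tuba3b region was lowest in the ifKO cohort. For D1Pas1 they were LOC108167736 (r = 0.989), Rps4l (0.981) and Gm16013 (0.979). For Cyct they were Gm52238 (0.972), 4930517G24Rik (0.968) and Itih3 (0.965). For Stk31 they were the region of Ntn3 and Tbc1d24 (0.977), 4732419C18Rik (0.972) and Gm52783 (0.971), and for Ddx4 Dzip1l (0.957), Gm40673 (0.948) and Cited4 (0.945). For Tex14, Gm36742 (0.969), the region of Cldn3 and Wbscr25 (0.968) and Cdr2l (0.966) came closest. For Dazl they were Tbr1 (0.970), Nedd4 (0.968) and Gm13257 (0.966), and for Tuba3b Nckap5 (0.935), Gm7628 (0.932) and Zfp366 (0.931).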

How the data were processed

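Each deposited H3K4me3 file gives raw read counts for 1 library over 36005 shared regions, per the file headers, and 9 repeated regions were removed to leave 35996. The deposited H3K4me1 and Kdm5C files call their values raw counts too, but the values behave as a signal of summed base coverage, so 50 covered bases were read as 1 read equivalent, and the library totals behind them are unknown. Per the submitters' processing notes the tools included MACS2 2.1.0, Bowtie2 2.2.9, R 3.3 with DESeq2 1.10.0, and SAMtools 1.3.1. FeatureCounts is named for H3K4me1 and Kdm5C alone, and the build was GRCm38 (mm10). Their order and settings, and how the regions were defined, are not given in the sources used here. Coordinates are those of the files.

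All 12 H3K4me3 libraries were fitted together on 35955 regions in edgeR 4.0.16 (R 4.3.3), with 1 mean per group, TMM factors and quasi-likelihood F tests. The filter on low counts (filterByExpr) removed 41 regions, none of them a member. P-values were adjusted by Benjamini and Hochberg over all tested regions at 0.05, and standard errors were derived from the F statistic. A gene with several regions would have been represented by the one with the most counts. An exact permutation of 2 against 2 libraries is too small to pass the threshold, so the tests rest on a spread estimated over all regions and groups. CPM use TMM-scaled library sizes. Pooled ratios have exact 95% intervals, and intervals and floors cover counting error only, as copies made by PCR could not be told from separate molecules.

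Alternatives were RLE size factors, library totals, offsets fitted to region strength, no filter, DESeq2 1.42.0, limma-voom (limma 3.58.1), the compared groups alone, the replicate number as a block, and each library left out in turn. The fits were tested on simulated data. Python 3.11.15 was used for joins. Genes and promoters came from RefSeq tables of GRCm38.p6, and motifs were searched on both strands. The members, gene lists and marker lists were chosen with earlier results of these data known. All members were named, with their copies and neighbours, the called genes of the pathway list and up to 6 others of it with the highest counts. For 1 ifWT library, titled H3K3me3, the antibody label (H3K4me3) was followed.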

Additional observations from a re-analysis of the deposited data

Results flagged for a closer look

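At 2 members the test of the difference between the KO effect under standard conditions and the ifKO effect passed the threshold (edgeR, n = 2 libraries in each of the 4 groups). At D1Pas1 the difference was 4.82 on the log2 scale (SE 1.00, adjusted p = 0.0109). The KO libraries held 64 and 78 counts against 3 and 1 in WT, and the ifKO libraries held 3 and 5 against 3 and 6 in ifWT. The region passed the filter on low counts through the KO libraries alone, a fitted change from so few counts depends on the prior count, and the call was lost without the second WT standard (0.098) or second ifWT library (0.272). At the Tex14 region, shared with Rad51c, the difference was 0.46 (SE 0.11, adjusted p = 0.0281). The means went from 31.1 to 47.3 CPM in the KO comparison and from 34.8 to 38.4 CPM in the ifKO comparison. That call was lost with DESeq2 (0.0686), limma-voom (0.075) and the compared groups alone (0.0768), and without any of 6 single libraries.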

How the results depend on the processing

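The counts of members called in KO against WT stayed at 5 to 6 of 8 under standard conditions, 4 to 5 after novelty and 5 to 7 in the average of both when single libraries were left out, and novelty and interaction gave 0 throughout. In both KO comparisons D1Pas1, Ddx4, Stk31 and Tex14 kept their calls under every other scaling, filter and tool tried. Cyct kept its calls under all of these but DESeq2, which gave it no adjusted p. In the main fit 9.74% of all regions were called higher under standard conditions, 11.1% after novelty and 18.1% in the average. D1Pas1 and Cyct passed the filter on low counts through the KO libraries alone, and the list was chosen with earlier results known. These counts and kept calls therefore describe the list and do not stand as support. In ifKO against ifWT the count of 1 became 0 with offsets fitted to region strength, the replicate block, DESeq2, limma-voom and the compared groups alone, and was 0 to 1 with a library left out. For the KO effect minus the ifKO effect the count of 2 became 1 with DESeq2, limma-voom and the compared groups alone, and ran from 0 to 2 with a library left out.

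The Dazl change in the average of both conditions lost its call with RLE size factors (adjusted p = 0.0518), offsets (0.11) and DESeq2 (0.0958), and without the second WT standard (0.131), first KO standard (0.0924), first WT novelty (0.109), first KO novelty (0.0608) or second KO novelty library (0.0803). Under standard conditions it gained one with library totals (0.0375). In ifKO it lost its call with offsets (0.074), DESeq2 (0.0773), limma-voom (0.0539) and the compared groups alone (0.0722), and without the first ifWT (0.231), second ifWT (0.0939) or first ifKO library (0.309). The Tuba3b change in the average of both lost its call with offsets (0.184) and DESeq2 (0.0723), and without the second WT standard (0.123), second KO standard (0.0606), second WT novelty (0.13) or second KO novelty library (0.104). For Tex14 the difference between the lines lost its call without the first WT standard (0.0785), second WT standard (0.178), first KO standard (0.0767), second KO standard (0.057), first ifWT (0.143) or second ifKO library (0.0921). The cause was not tested.

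Directions turned in 40 of the fits, none of them at a member called in that comparison. With offsets they were -0.0366 (Tuba3b, KO after novelty), -0.118 (D1Pas1, ifKO), -5.29e-05 (Dazl, novelty in KO) and -0.00569 (Cyct, interaction), and with the compared groups alone 0.000179 (Tex14, novelty in KO). With a library left out, the ranges that crossed 0 were -0.0217 to 0.226 for Tuba3b in KO after novelty, and in ifKO -0.432 to 0.533 for D1Pas1, -0.0301 to 1.59 for Ddx4, -0.364 to 1.26 for Cyct and -0.16 to 0.594 for Tuba3b. For novelty in WT they were -0.00652 to 1.48 (D1Pas1), -0.247 to 0.495 (Ddx4), -0.732 to 0.358 (Stk31), -2.27 to 0.888 (Cyct), -0.177 to 0.16 (Zar1) and -0.0179 to 0.23 (Tuba3b). For novelty in KO they were -0.389 to 0.297 (D1Pas1), -0.0278 to 0.0337 (Dazl), -0.0544 to 0.0485 (Tex14) and -0.0444 to 0.394 (Zar1). For the interaction they were -1.24 to 1.91 (Cyct) and -0.0235 to 0.415 (Zar1), and for the difference between the lines -0.586 to 0.28 (Zar1).

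Libraries with the same replicate number did not deviate together over all regions (correlations of -0.036 to 0.057 between the groups compared). A batch that does not follow the replicate number was not tested. With the replicate block the regions called were 4568 of 35955 in KO under standard conditions, 5799 after novelty and 1817 in ifKO, against 4821, 6118 and 1936 without it, and among the members it changed the Dazl call in ifKO alone. Over all regions, leaving out 1 library gave 1984 to 3515 calls in KO under standard conditions, 2239 to 4846 after novelty and 935 to 2572 in ifKO. The difference between the lines gave 252 calls, 145 with DESeq2, 99 with limma-voom, 149 with the compared groups alone and 94 to 362 with a library left out. Novelty in WT gave 2 calls, and 106 with the compared groups alone.

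DESeq2 also gave no adjusted p for Cyct in ifKO, nor for D1Pas1 in ifKO. A window of 1 kb left 7 members with a region, without Tuba3b, and one of 5 kb gave 9 regions for the 8. The Dazl overlap with the Kdm5C file also met a minimum of 50% of the shorter region. Depth limits D1Pas1, Cyct, Stk31 and Ddx4, whose control libraries held 1 to 18 counts.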

Other observations

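Of the 18 tested germ cell genes on the list that are no members, 2 differed between the lines, 1 in each direction. Over all regions, 0.651% were called higher and 0.0501% lower in that comparison. Rnf17, a Tudor protein gene, held 23 and 26 counts in ifWT and 13 and 12 in ifKO, whereas it rose in KO. The difference between the KO effect under standard conditions and the ifKO effect was 2.06 ± 0.45 on the log2 scale (SE, edgeR, adjusted p = 0.0198), and it was not past the threshold with DESeq2 (0.0856) or limma-voom (0.0751). Nor was it past it without the second WT standard (0.132), second KO standard (0.0632), first ifWT (0.059), second ifWT (0.0932) or first ifKO library (0.062). Henmt1, the enzyme that methylates the ends of piRNAs, held 62 and 63 counts in ifWT and 128 and 125 in ifKO, a rise of 1.22 ± 0.22 (3.4e-04). Of the 18 it alone was called in ifKO against ifWT, where 4.41% of all regions were called higher. In WT and KO under standard conditions it held 82 and 77 against 51 and 91 counts, and the difference between the lines was -1.60 ± 0.32 (0.008), or -1.31 (0.0658) without the first KO library. In the average of both KO comparisons Ybx2, a germ cell RNA-binding protein gene, rose by 0.29 ± 0.09 (0.0116), and the region shared by Tnp2 and Socs1 by 0.21 ± 0.05 (0.00296). The Ybx2 call was lost with offsets fitted to region strength (0.0897) and without the second WT standard (0.0526) or second KO standard library (0.0995), and the Tnp2 call without the second KO standard library (0.0501).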
